A study of Mus musculus with 24 samples.

Results

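The endoplasmic reticulum (ER) is the compartment where secreted and membrane proteins are folded, and the 34 genes described here encode its chaperones, its machinery for discarding misfolded proteins and the regulators of the unfolded protein response. They were taken by gene symbol from a list of such genes. Of the 34 genes, 32 were measured, each by 1 of the 22206 gene features tested, and Manf and Pdia4 were not analysed here. Of the 32 measured genes, 31 had a mean above 4.73 in at least 1 group. That silent level is the 95th percentile of 1414 olfactory and vomeronasal receptor features, which these cells were assumed not to express. The median of the negative control features was 4.76 to 5.12 in the 24 arrays, above that level. A value above the silent level therefore does not show that a gene was expressed, and backgrounds above it include features that may be silent. Derl3, which encodes a derlin, stayed between 2.94 and 4.14 in the 24 arrays, below the silent level.

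RNA was measured on 24 Clariom S mouse arrays in RAW 264.7 cells, a transformed mouse macrophage-like line, with 3 arrays in each of 8 groups. The cells received grape proanthocyanidins (PAC, condensed tannins built from flavan-3-ol units) of low, medium or high mean polymerization at 15 µg/mL, and after 30 minutes either lipopolysaccharide (LPS, a component of the bacterial outer membrane) at 500 ng/mL or a mock treatment for 6 h. The groups were low PAC + LPS, medium PAC + LPS, high PAC + LPS, LPS alone, low PAC, medium PAC, high PAC and untreated control. The samples were triplicates that carry only numbers, so they may be technical repeats, and every p-value reflects just the variation among these samples. Since RNA came from bulk cultures, fewer cells of a type and less RNA per cell cannot be told apart.

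When unfolded proteins accumulate in the ER, the sensors IRE1 (encoded by Ern1), ATF6 and PERK are released from the chaperone BiP (encoded by Hspa5) and start a transcriptional program. IRE1 splices the Xbp1 mRNA into the form that encodes an active transcription factor, ATF6 is cleaved into one, and PERK slows translation and favours ATF4. In macrophages, Toll-like receptor signalling is known to engage IRE1 and XBP1 during the production of secreted cytokines. The array reports 1 value for Xbp1, so its spliced and unspliced forms were not told apart.

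XBP1 and ATF6 are known to act through short promoter elements, and for that reason the promoters of some members that hold a match are printed here. A RefSeq promoter window (250 bases before to 50 after a transcript start, mouse build GRCm38.p6) was at hand for 27 of the 34 genes. Both strands were searched for the ER stress response element (ERSE, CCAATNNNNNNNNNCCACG), for ERSE-II (ATTGGNCCACG) and for the core of the unfolded protein response element (UPRE, TGACGTGG). Windows of Hspa5 (chr2:34771840-34772089, + strand), Herpud1 (chr8:94386179-94386428, + strand), Syvn1 (chr19:6046326-6046575, + strand) and Sec24d (chr3:123267246-123267495, + strand) are printed from 5' to 3' over the 250 bases before the start, with the matched element in capitals.
Hspa5: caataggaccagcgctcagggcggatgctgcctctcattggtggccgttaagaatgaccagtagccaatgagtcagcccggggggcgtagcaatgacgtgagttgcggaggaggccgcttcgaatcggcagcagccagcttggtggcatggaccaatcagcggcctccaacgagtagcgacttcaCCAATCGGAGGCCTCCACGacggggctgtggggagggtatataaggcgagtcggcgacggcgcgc
Herpud1: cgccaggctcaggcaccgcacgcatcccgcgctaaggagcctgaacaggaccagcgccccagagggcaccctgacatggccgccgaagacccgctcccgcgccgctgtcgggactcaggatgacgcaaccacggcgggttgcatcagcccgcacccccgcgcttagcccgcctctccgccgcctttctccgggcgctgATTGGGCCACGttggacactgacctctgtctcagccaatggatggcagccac
Syvn1: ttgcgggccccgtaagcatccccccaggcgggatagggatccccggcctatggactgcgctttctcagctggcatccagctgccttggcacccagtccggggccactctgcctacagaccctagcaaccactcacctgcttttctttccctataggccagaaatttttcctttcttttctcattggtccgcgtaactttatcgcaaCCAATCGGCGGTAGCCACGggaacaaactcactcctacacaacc
Sec24d: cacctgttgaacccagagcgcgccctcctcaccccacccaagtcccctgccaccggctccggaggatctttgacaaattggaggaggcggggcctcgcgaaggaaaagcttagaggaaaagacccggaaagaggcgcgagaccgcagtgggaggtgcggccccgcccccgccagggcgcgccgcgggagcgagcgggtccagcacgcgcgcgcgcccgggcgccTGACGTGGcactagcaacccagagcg

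ERSE was found in 9 of the 27 members with a window (33.3%), against 39 of 32851 windows of all genes (0.119%). The members were listed as ER stress genes, so this difference describes the list. With the ends of the element in capitals, read along the strand of the match, the ERSE matches were as follows.
Hspa5: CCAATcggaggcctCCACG
Hsp90b1, first match: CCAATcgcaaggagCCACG
Hsp90b1, second match: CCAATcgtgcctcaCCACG
Dnajc3: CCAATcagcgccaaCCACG
Creld2: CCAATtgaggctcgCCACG
Calr: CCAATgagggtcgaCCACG
Canx: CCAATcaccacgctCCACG
Pdia6: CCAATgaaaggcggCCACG
Syvn1: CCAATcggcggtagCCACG
Derl3: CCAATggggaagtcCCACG
The 9 bases between the ends, which the search did not specify, differed in every one of these matches. The position nearest to the start was that of Syvn1, -44 to -26, where -1 is the base before the start, and the match of Hspa5 lay at -65 to -47. ERSE-II was found in Herpud1 (ATTGGGCCACG, -52 to -42) and Dnajb11 (ATTGGCCCACG, 8 to 18 after the start), and in 12 windows of all genes (0.0365%). The UPRE core was found in Sec24d at -26 to -19 and in 222 windows of all genes (0.676%). Dnajb9, Edem1, Ero1a and Xbp1, among others, had a window but no match to ERSE, ERSE-II or the UPRE core. For Atf6 no window was at hand. CCACG alone, which every ERSE and ERSE-II match contains, was in 88.9% of the members with a window and in 32.8% of all windows, and CCAAT was in 77.8% and 37.4%. A match is a string of letters and does not show that a factor was bound. Only exact matches were counted, so a window without a match may still hold a similar element.

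**Figure D1:**
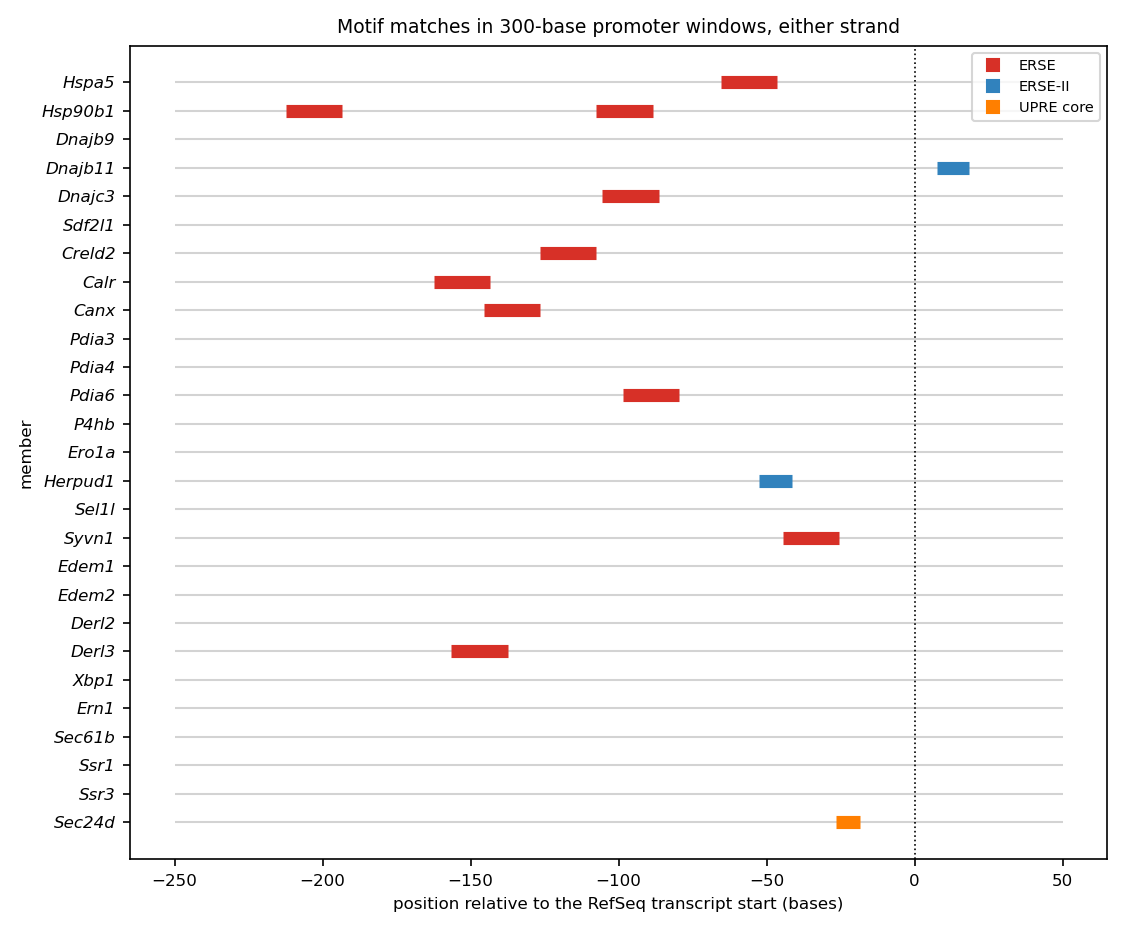
Matches of ERSE (red), ERSE-II (blue) and the UPRE core (orange) on either strand of 300-base RefSeq promoter windows, 1 grey line per member with a window, with position in bases from the transcript start on the x axis. The 9 members with ERSE, Herpud1 and Dnajb11 with ERSE-II and Sec24d with the UPRE core carry 13 matches in all, of which the match in Dnajb11 lies after the start.

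The deposited values are on a log2 scale that runs to 19.26, although a 16-bit scanner pixel cannot exceed 16 in log2 units. Changes are therefore given as differences on the deposited log2 scale and not as folds. Group means of Hspa5, Calr, Hsp90b1, Xbp1 and Herpud1 exceeded 16 in at least 1 group, where changes may be compressed. Levels of different genes were not ranked, because probes differ. The members were measured with little spread between replicates. The pooled standard deviation within groups had a median of 0.117 over the 31 members above the silent level, from 0.0551 for Calr to 0.351 for Sec61b, against 0.256 over 12744 gene features above that level.

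LPS changed 17 of the 32 members, with 13 higher and 4 lower than in control, by limma with Benjamini-Hochberg adjustment over all features at an adjusted p under 0.05. Of all features tested, 13.5% were higher and 20.3% lower. Over the 12744 features above the silent level, to which 31 of the 32 members belong, 20.8% were higher and 34.6% lower, so the share of members called in either direction was near that of these features. The median change of the members was 0.27, against 0.03 for all features and -0.13 for those above the silent level. The changes ran from -1.37 for Edem1 to 3.24 for Dnajb9, and thus the members did not move as 1 block. Of the 9 measured members with ERSE, 3 were higher and 0 lower, and of the 17 with a window but no ERSE, 6 were higher and 3 lower, with median changes of 0.27 and 0.25. With medium PAC alone 1 of the 9 with ERSE was higher and 0 lower, against 7 higher and 2 lower of the 17 without (medians 0.02 and 0.13). With medium PAC + LPS 3 of the 9 and 5 of the 17 were lower (medians -0.19 and -0.07). The 17 are not free of such elements, since they include Herpud1 and Dnajb11 with ERSE-II and Sec24d with the UPRE core. Herpud1 and Sec24d are among the 6 higher with LPS and the 5 lower with medium PAC + LPS. The 9 include Derl3, which lay below the silent level.

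With PAC of low polymerization no member passed the test in either state, which does not show that none changed. With low PAC the count was 0 higher and 0 lower against control (background 0.0315% higher and 0.0045% lower, with 2 members at an unadjusted p under 0.05). With low PAC + LPS it was 0 and 0 against LPS (background 0.122% higher and 0.027% lower, with 1 member at an unadjusted p under 0.05). Medium PAC raised 9 members and lowered 3 in resting cells, against a background of 5.03% higher and 6.28% lower (8.36% and 10.8% of features above the silent level). For medium PAC, leaving out 1 array gave 10 to 12 calls, and a fit of the compared groups only gave 3. High PAC raised 3 and lowered 1, against 3.21% higher and 3.64% lower (5.32% and 6.26% above the silent level). Leaving out 1 array gave 2 or 3 calls for high PAC in place of 4, with 2 without control replicate 1 or 3 or without high PAC replicate 2 or 3, and 1 call was left in a fit of the compared groups only or without the 3 resting arrays with high Il1b described last. With LPS present, only falls were called. Medium PAC + LPS lowered 9 members and raised none relative to LPS (background 7.17% higher and 7.47% lower, or 11.9% and 12.5% above the silent level). High PAC + LPS lowered 4 and raised none (background 4.34% higher and 5.74% lower, or 6.53% and 9.73% above the silent level), a share of lower members near that background. Of these 4 calls, 1 was left without LPS replicate 1 and 2 without any 1 of the high PAC + LPS arrays. The comparisons of the 3 PAC in 1 state share their reference arrays, and the arrays with LPS alone enter both the LPS comparison and the PAC + LPS comparisons.

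**Figure D2:**
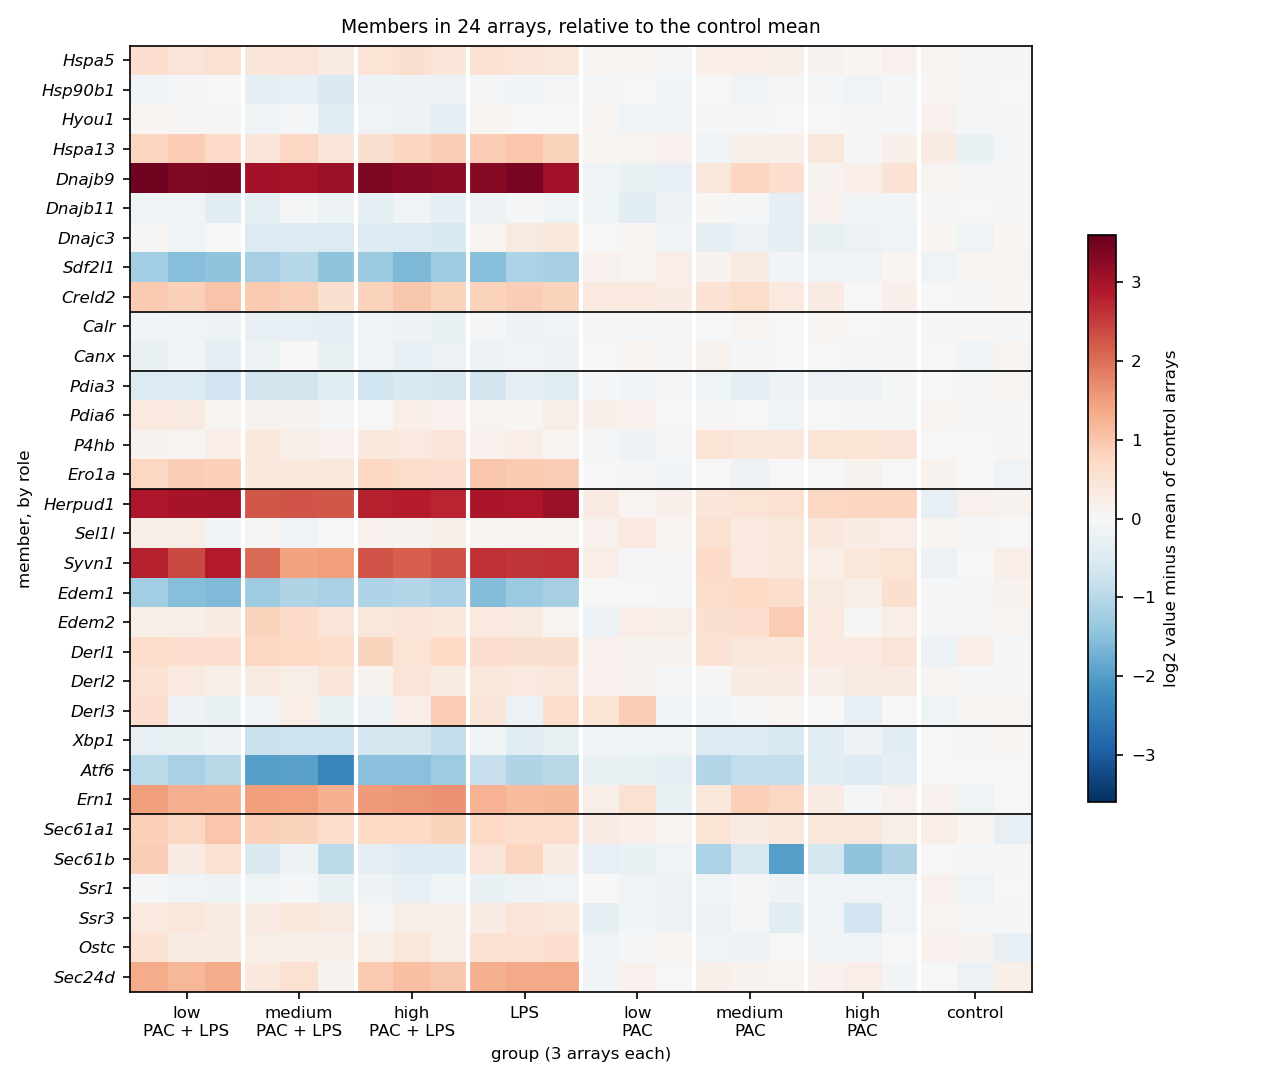
Log2 value of each of the 32 measured members (rows, by role, black lines between roles) in each of the 24 arrays (columns, by group), as the difference from the mean of the 3 control arrays (red higher, blue lower). Dnajb9, Herpud1 and Syvn1 are red in all 12 arrays with LPS, Edem1, Sdf2l1 and Atf6 are blue there, and Sec61b is blue in the arrays with medium and high PAC alone.

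The sensors and transcription factors were Ern1, Atf6 and Xbp1, and LPS and medium PAC alone each raised Ern1 and lowered Atf6. Ern1, which encodes the IRE1 kinase and endonuclease, read 10.94, 10.81 and 10.85 in LPS arrays, against 9.82, 9.52 and 9.68 in control arrays. The groups did not overlap, and the change was 1.19 ± 0.17 (SE, n = 3, adjusted p = 6.3e-06). With medium PAC alone Ern1 read 10.05, 10.54 and 10.43, above every control array, a change of 0.67 ± 0.17 (adjusted p = 0.011). That call was lost without control replicate 2 or medium PAC replicate 2. With high PAC alone it read 9.96, 9.63 and 9.81 and with low PAC alone 9.89, 10.21 and 9.45, both groups overlapping control. Added to LPS, the readings were 11.18, 10.97 and 10.94 with low PAC, 11.18, 11.16 and 10.96 with medium PAC and 11.20, 11.27 and 11.30 with high PAC. All 9 readings lay above every LPS array before rounding, but no change against LPS passed the test (adjusted p = 0.16 to 0.88).

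Atf6, which encodes the membrane-bound transcription factor, was lowered by LPS and by medium PAC. It read 14.19, 13.92 and 14.001 in LPS arrays, against 15.02, 14.98 and 15.02 in control arrays, a change of -0.97 ± 0.12 (adjusted p = 1.4e-06). Medium PAC alone gave 13.95, 14.14 and 14.12, a change of -0.94 ± 0.12 against control (adjusted p = 1.3e-05). The medium PAC arrays thus lay as low as the LPS arrays. The lowest readings of any group came from medium PAC + LPS, at 13.02, 13.06 and 12.65, a change of -1.13 ± 0.12 against LPS (adjusted p = 8.1e-07). High PAC + LPS gave 13.51, 13.51 and 13.72, also below every LPS array, a change of -0.45 ± 0.12 (adjusted p = 0.020). This call was lost without LPS replicate 1 or without high PAC + LPS replicate 1 or 2. High PAC alone gave 14.62, 14.56 and 14.65, below every control array, with a change of -0.40 that did not pass (adjusted p = 0.054). Low PAC gave 14.73, 14.76 and 14.68 alone and 14.05, 13.85 and 14.01 with LPS, and neither passed (adjusted p = 0.95 and 0.94).

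Xbp1, which encodes the transcription factor activated by IRE1, was not raised in any comparison. Its total signal read 16.43, 16.20 and 16.32 in LPS arrays, against 16.57, 16.51 and 16.63 in control arrays, and the change of -0.26 ± 0.11 did not pass (adjusted p = 0.077). With medium PAC alone it read 16.09, 16.10 and 16.01, below every control array, a change of -0.50 ± 0.11 (adjusted p = 0.0030). With high PAC alone it read 16.18, 16.38 and 16.15, a change of -0.33 (adjusted p = 0.071), and with low PAC alone 16.44, 16.43 and 16.44, a change of -0.14 (adjusted p = 0.999). In LPS-activated cells both larger PAC lowered it. Medium PAC + LPS gave 15.78, 15.83 and 15.82, a change of -0.51 ± 0.11 against LPS (adjusted p = 0.0020). High PAC + LPS gave 15.93, 15.97 and 15.69, a change of -0.45 ± 0.11 (adjusted p = 0.0089), a call lost without LPS replicate 1 or high PAC + LPS replicate 3. Low PAC + LPS gave 16.29, 16.32 and 16.37, within the range of the LPS arrays.

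Among the luminal chaperones and co-chaperones, LPS raised 4 of 9 measured members and lowered 1 (background above the silent level 20.8% higher and 34.6% lower). Hspa5, the Hsp70 chaperone BiP, read 18.51, 18.43 and 18.38 in LPS arrays, against 18.07, 17.94 and 17.90 in control arrays. These groups did not overlap, and the change of 0.47 ± 0.10 passed (adjusted p = 0.00068). Resting cells with low, medium and high PAC gave 18.04, 18.05 and 17.93, then 18.20, 18.20 and 18.15, and then 18.09, 18.05 and 18.11. The medium PAC arrays lay above every control array, but the change of 0.21 (95% interval 0.00 to 0.42) did not pass (adjusted p = 0.22). With LPS, low PAC gave 18.58, 18.42 and 18.51, medium PAC gave 18.41, 18.44 and 18.28 and high PAC gave 18.47, 18.54 and 18.39. No PAC moved Hspa5 past the test in LPS-activated cells, with changes of 0.06, -0.07 and 0.02 in that order (adjusted p = 0.77 to 0.93).

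Dnajb9, an Hsp40 co-chaperone that hands clients to BiP and holds back IRE1, had the largest rise with LPS of any member. It read 14.24, 14.36 and 13.97 in LPS arrays, against 11.06, 10.92 and 10.89 in control arrays, a change of 3.24 ± 0.13 (adjusted p = 3.4e-14). Medium PAC alone gave 11.37, 11.73 and 11.56, above every control array, a change of 0.60 ± 0.13 (adjusted p = 0.0035). Sdf2l1, a partner of the Hsp40 protein encoded by Dnajb11, went the other way with LPS. It read 12.24, 12.63 and 12.57 in LPS arrays, against 13.60, 13.82 and 13.87 in control arrays, a change of -1.29 ± 0.15 (adjusted p = 5.3e-07). Hspa13, an Hsp70-like ATPase of microsomes, rose by 0.90 with LPS (adjusted p = 6.3e-05). Creld2, an ER protein with disulfide isomerase activity, rose by 0.84 with LPS (adjusted p = 1.0e-05) and by 0.51 with medium PAC alone (adjusted p = 0.0075).

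Dnajc3, a co-chaperone that also inhibits PERK, passed the test as lower with medium and high PAC when LPS was present. It read 12.33, 12.34 and 12.31 with medium PAC + LPS and 12.35, 12.32 and 12.24 with high PAC + LPS, against 12.90, 13.14 and 13.17 with LPS. The changes were -0.75 ± 0.11 and -0.77 ± 0.11 (adjusted p = 5.0e-05 and 8.4e-05), and no array of either group reached the lowest LPS array. Low PAC + LPS gave 12.84, 12.64 and 12.83, also below every LPS array, with a change of -0.30 that did not pass (adjusted p = 0.51). In resting cells medium PAC gave 12.48, 12.60 and 12.44 and high PAC 12.55, 12.61 and 12.64, all below the control arrays at 12.89, 12.65 and 12.88, with changes of -0.30 and -0.21 that did not pass (adjusted p = 0.105 and 0.36). The difference between the states did not pass for medium or high PAC (interactions of -0.45 and -0.56, adjusted p = 0.113 and 0.086). LPS alone had changed Dnajc3 by 0.27, which did not pass (adjusted p = 0.078). Hsp90b1, the ER paralogue of Hsp90, fell by 0.31 with medium PAC + LPS (adjusted p = 0.037), a call that was lost without any 1 of the 3 LPS arrays or without medium PAC + LPS replicate 1 or 3. Hyou1, a nucleotide exchange factor of BiP, and Dnajb11 were called in none of the 7 comparisons with control or LPS, with changes between -0.25 and 0.03.

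**Figure D3:**
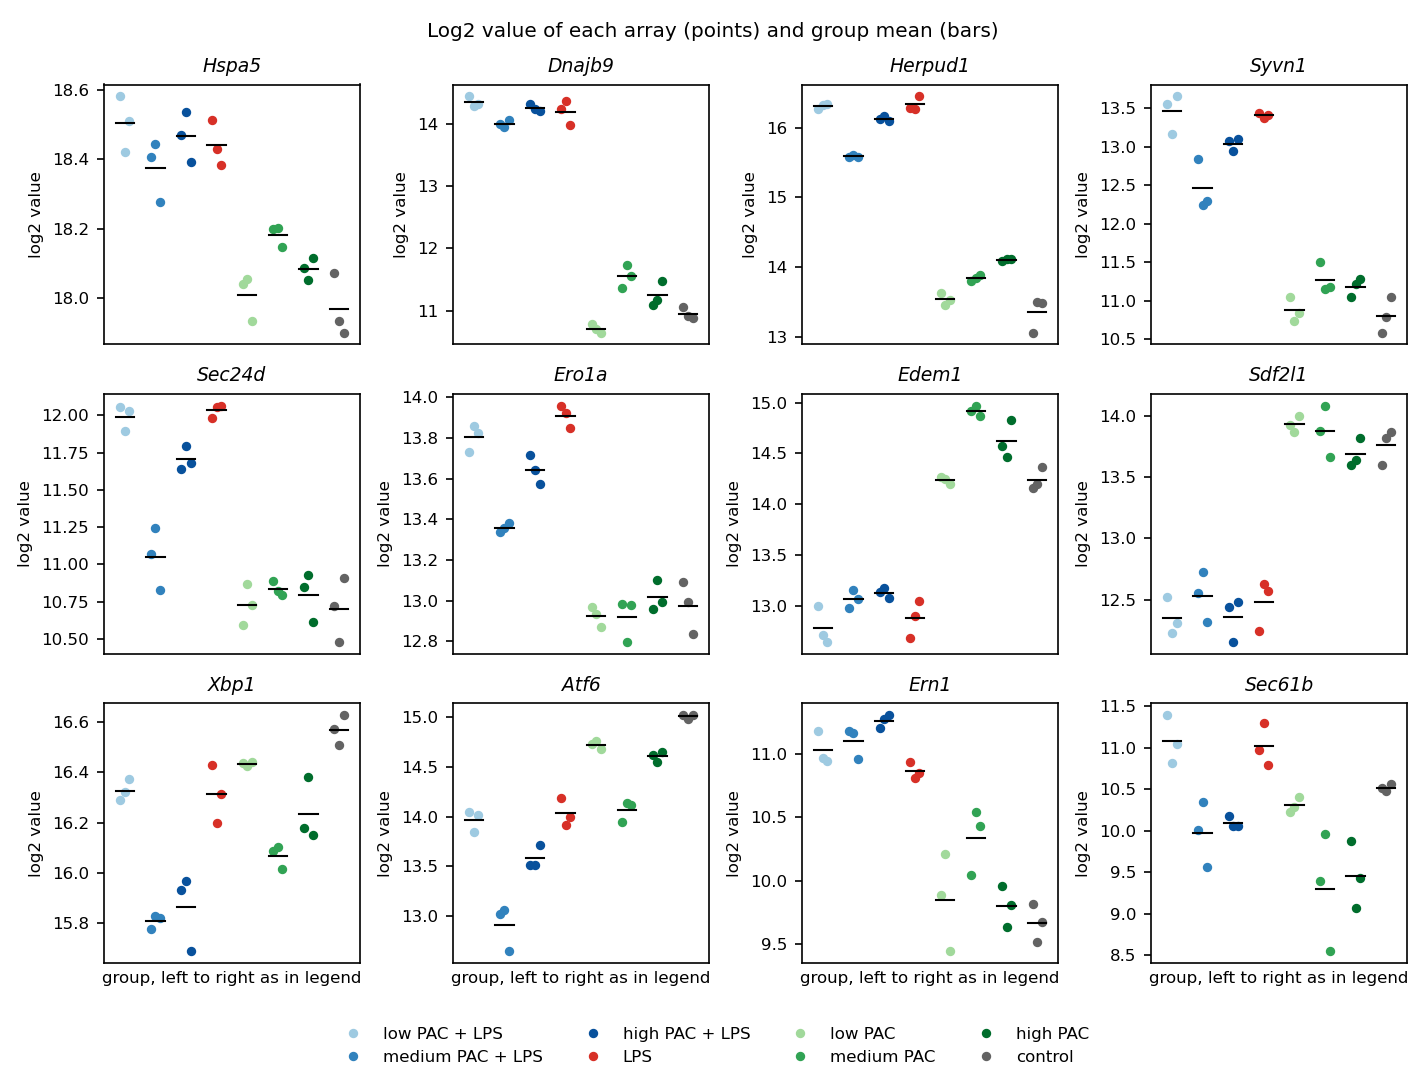
Log2 values of 12 members in the 24 arrays, 1 panel per gene with its own y axis that does not start at 0, as points with a bar at the group mean, and the 8 groups from left to right as in the legend. Dnajb9, Herpud1 and Syvn1 stand high in all groups with LPS, Syvn1, Sec24d and Ero1a are lower with medium PAC + LPS than with LPS, and Atf6 and Xbp1 have their lowest group means with medium PAC + LPS.

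The lectin chaperones Calr and Canx, which hold glycoproteins during folding, were called in none of the 16 comparisons made. Their group means spanned 0.347 for Calr and 0.262 for Canx over the 8 groups. Among the enzymes of disulfide chemistry, Ero1a, the oxidase that recharges protein disulfide isomerases, rose with LPS. It read 13.96, 13.92 and 13.85 in LPS arrays, against 13.09, 12.99 and 12.83 in control arrays, a change of 0.94 ± 0.10 (adjusted p = 2.4e-07). Medium PAC + LPS gave 13.34, 13.36 and 13.38, below every LPS array and above every control array, a change of -0.55 ± 0.10 against LPS (adjusted p = 0.00063). Pdia3, the isomerase that works with Calr and Canx, fell by 0.47 with LPS. It read 14.99, 15.35 and 15.22 in LPS arrays, against 15.64, 15.59 and 15.75 in control arrays (adjusted p = 0.0030).

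P4hb, the founding protein disulfide isomerase, was higher with medium and high PAC in resting cells. It read 15.31, 15.22 and 15.23 with medium PAC and 15.32, 15.30 and 15.27 with high PAC, against 14.79, 14.79 and 14.86 in control arrays. All 6 readings lay above the control arrays, with changes of 0.44 ± 0.10 and 0.48 ± 0.10 (adjusted p = 0.0054 and 0.0042). In LPS-activated cells P4hb changed by 0.08 with medium PAC and 0.25 with high PAC against LPS, neither past the test (adjusted p = 0.70 and 0.14). The difference between the states did not pass for medium or high PAC, so the states were not told apart. Pdia6 was called in none of the 16 comparisons.

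ER-associated degradation, which draws misfolded proteins back into the cytosol for the proteasome, held 8 measured members. LPS raised 4 of them and lowered 1, and medium PAC alone raised 5 and lowered none. Above the silent level the background was 20.8% higher and 34.6% lower with LPS, and 8.36% and 10.8% with medium PAC. Herpud1, a membrane protein that assembles the degradation complex, read 16.29, 16.27 and 16.45 in LPS arrays, against 13.06, 13.50 and 13.49 in control arrays, a change of 2.98 ± 0.12 (adjusted p = 1.9e-14). Medium PAC moved Herpud1 in opposite directions in the 2 states. In resting cells it read 13.80, 13.85 and 13.89 with medium PAC and 14.09, 14.12 and 14.12 with high PAC, all above the control arrays, with changes of 0.49 ± 0.12 and 0.76 ± 0.12 (adjusted p = 0.0063 and 0.00020). The call for medium PAC was lost without control replicate 1. In LPS-activated cells medium PAC gave 15.58, 15.62 and 15.59, a change of -0.74 ± 0.12 against LPS (adjusted p = 8.3e-05), and high PAC gave 16.12, 16.17 and 16.10, a change of -0.20 that did not pass (adjusted p = 0.32).

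Syvn1, the ubiquitin ligase HRD1, read 13.44, 13.37 and 13.42 in LPS arrays, against 10.58, 10.78 and 11.04 in control arrays. The change was 2.61 ± 0.17 (adjusted p = 7.5e-11). Medium PAC + LPS gave 12.84, 12.24 and 12.30, each below the LPS arrays and above the control arrays, a change of -0.95 ± 0.17 against LPS (adjusted p = 0.00040). Its adaptor Sel1l stood apart, since LPS changed it by only 0.09 (adjusted p = 0.63). Sel1l read 12.43, 12.22 and 12.27 with medium PAC alone, against 11.95, 11.81 and 11.85 in control arrays, a change of 0.44 ± 0.12 (adjusted p = 0.016). This call was lost without control replicate 2 or 3 or medium PAC replicate 1.

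Edem1 and Edem2 encode mannosidase-like proteins that mark glycoproteins for degradation. Edem1 read 12.68, 12.90 and 13.05 in LPS arrays, against 14.16, 14.19 and 14.37 in control arrays, a change of -1.37 ± 0.13 and the largest fall of any member with LPS (adjusted p = 2.0e-08). With medium PAC alone Edem1 read 14.91, 14.97 and 14.87, above every control array, a change of 0.68 ± 0.13 (adjusted p = 0.00097). LPS and medium PAC thus moved Edem1 in opposite directions, each against the same control arrays. Edem2 read 11.94, 11.98 and 12.30 with medium PAC alone, against 11.31, 11.32 and 11.48 in control arrays, a change of 0.70 ± 0.14 (adjusted p = 0.0021). LPS changed Edem2 by 0.25, which did not pass (adjusted p = 0.21).

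The derlins form part of the channel through which substrates leave the ER. Derl1 rose by 0.59 with LPS (adjusted p = 0.00046) and Derl2 by 0.39 (adjusted p = 0.018), and the call of Derl2 was lost without LPS replicate 1 or control replicate 2 or 3. Derl1 read 13.36, 13.21 and 13.22 with medium PAC and 13.19, 13.20 and 13.31 with high PAC, against 12.62, 13.08 and 12.79 in control arrays. The changes of 0.43 and 0.40 only just passed (adjusted p = 0.021 and 0.0496). The first was lost without control replicate 1 or 3 or medium PAC replicate 1, and the second without control replicate 1 or 3 or any 1 of the high PAC arrays.

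Among the 6 genes of translocation, glycosylation and vesicle export, LPS raised 3 and lowered none (background above the silent level 20.8% higher and 34.6% lower). Sec24d, a cargo-binding subunit of the COPII coat, read 11.98, 12.06 and 12.07 in LPS arrays, against 10.72, 10.48 and 10.91 in control arrays, a change of 1.33 ± 0.13 (adjusted p = 5.6e-08). Sec61a1, the pore of the translocon, rose by 0.65 (adjusted p = 0.00036) and Ostc, a subunit of oligosaccharyltransferase, by 0.54 (adjusted p = 0.0016). Medium PAC + LPS gave 11.07, 11.24 and 10.83 for Sec24d, below every LPS array and overlapping the control arrays, a change of -0.99 ± 0.13 against LPS (adjusted p = 1.5e-05). High PAC + LPS gave 11.64, 11.80 and 11.68, also below every LPS array, with a change of -0.33 that did not pass (adjusted p = 0.14).

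Sec61b, a small accessory subunit of the translocon, was lower with medium and high PAC in both states. In resting cells it read 9.39, 9.96 and 8.55 with medium PAC and 9.88, 9.07 and 9.43 with high PAC, against 10.52, 10.48 and 10.57 in control arrays, with changes of -1.22 ± 0.27 and -1.06 ± 0.27 (adjusted p = 0.0045 and 0.021). With LPS it read 10.01, 10.35 and 9.57 with medium PAC and 10.18, 10.05 and 10.06 with high PAC, against 10.98, 11.30 and 10.79 with LPS alone, with changes of -1.05 ± 0.27 and -0.93 ± 0.27 (adjusted p = 0.011 and 0.035). No array with medium or high PAC overlapped the control or LPS arrays it was set against. Sec61b also had the widest spread among the members above the silent level, and of the 4 calls the 1 for medium PAC alone was kept without any 1 array. The others were lost without LPS replicate 2 or medium PAC + LPS replicate 3, without any control array or high PAC replicate 2 or 3, and without LPS replicate 1 or 2 or any high PAC + LPS array. Ssr1 and Ssr3, subunits of the translocon-associated protein complex, were called in none of the 16 comparisons, although Ssr3 came close with LPS (change 0.37, adjusted p = 0.052).

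**Figure D4:**
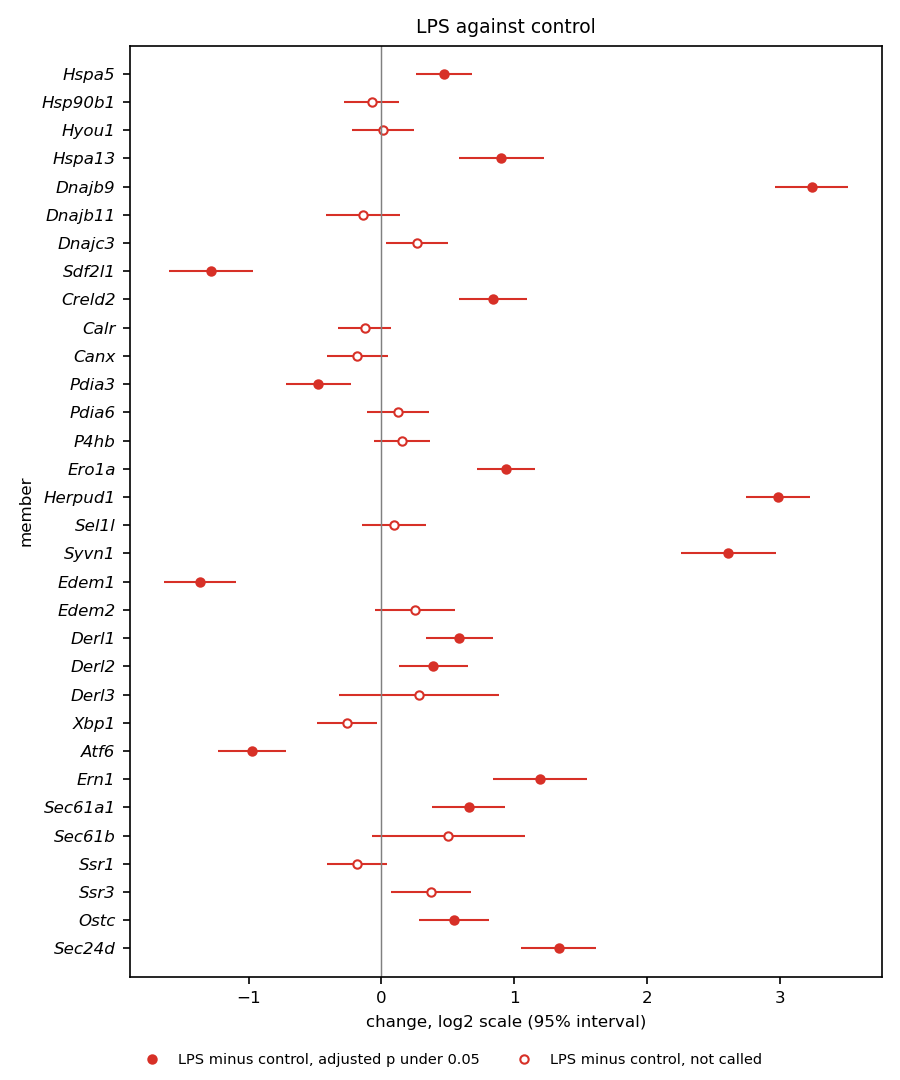
Change of each of the 32 members between LPS and control on the deposited log2 scale (points) with its 95% interval (lines), filled where the adjusted p was under 0.05. The 13 filled points to the right run from Derl2 at 0.39 to Dnajb9 at 3.24, and the 4 to the left from Pdia3 at -0.47 to Edem1 at -1.37.

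Whether PAC acted on the members to the same extent in the 2 states was asked with an interaction, the PAC change with LPS minus the PAC change in resting cells. For medium PAC 6 members passed, all with negative values, against 6.29% of all features in either direction. In the fit filtered at the silent level, above which 31 of the 32 members lie, 15% of features passed. That fit adjusts over fewer features, so its calls are not the same as those counted here. The median over the members was -0.28. Syvn1 changed by -0.95 with LPS and by 0.47 in resting cells, where it did not pass (adjusted p = 0.089), a difference of -1.42 (95% interval -1.93 to -0.91, adjusted p = 0.00061). Herpud1 changed by -0.74 with LPS and by 0.49 in resting cells, a difference of -1.24 (-1.58 to -0.89, adjusted p = 3.8e-05). Sec24d changed by -0.99 with LPS and by 0.13 in resting cells, a difference of -1.12 (-1.51 to -0.72, adjusted p = 0.00058). Dnajb9 (-0.79), Sel1l (-0.56) and Ero1a (-0.50) were the others, and Sel1l failed the test without any 1 of the 12 arrays involved. Ero1a failed it without any 1 of these arrays except control replicate 1 and medium PAC replicate 2. For high PAC 1 member passed, against 1.91% of all features, or 4.96% in the filtered fit. It was Herpud1, which changed by -0.20 with LPS and by 0.76 in resting cells, a difference of -0.96 (-1.30 to -0.62, adjusted p = 0.0021), or -0.94 without the 3 resting arrays with high Il1b described last (adjusted p = 0.0515). For low PAC no member passed and 0% of all features did, with 1 member at an unadjusted p under 0.05. The falls of Atf6 and Xbp1 with medium PAC were not told apart between the states, with differences of -0.18 (-0.55 to 0.18) and 0.00 (-0.32 to 0.32).

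**Figure D5:**
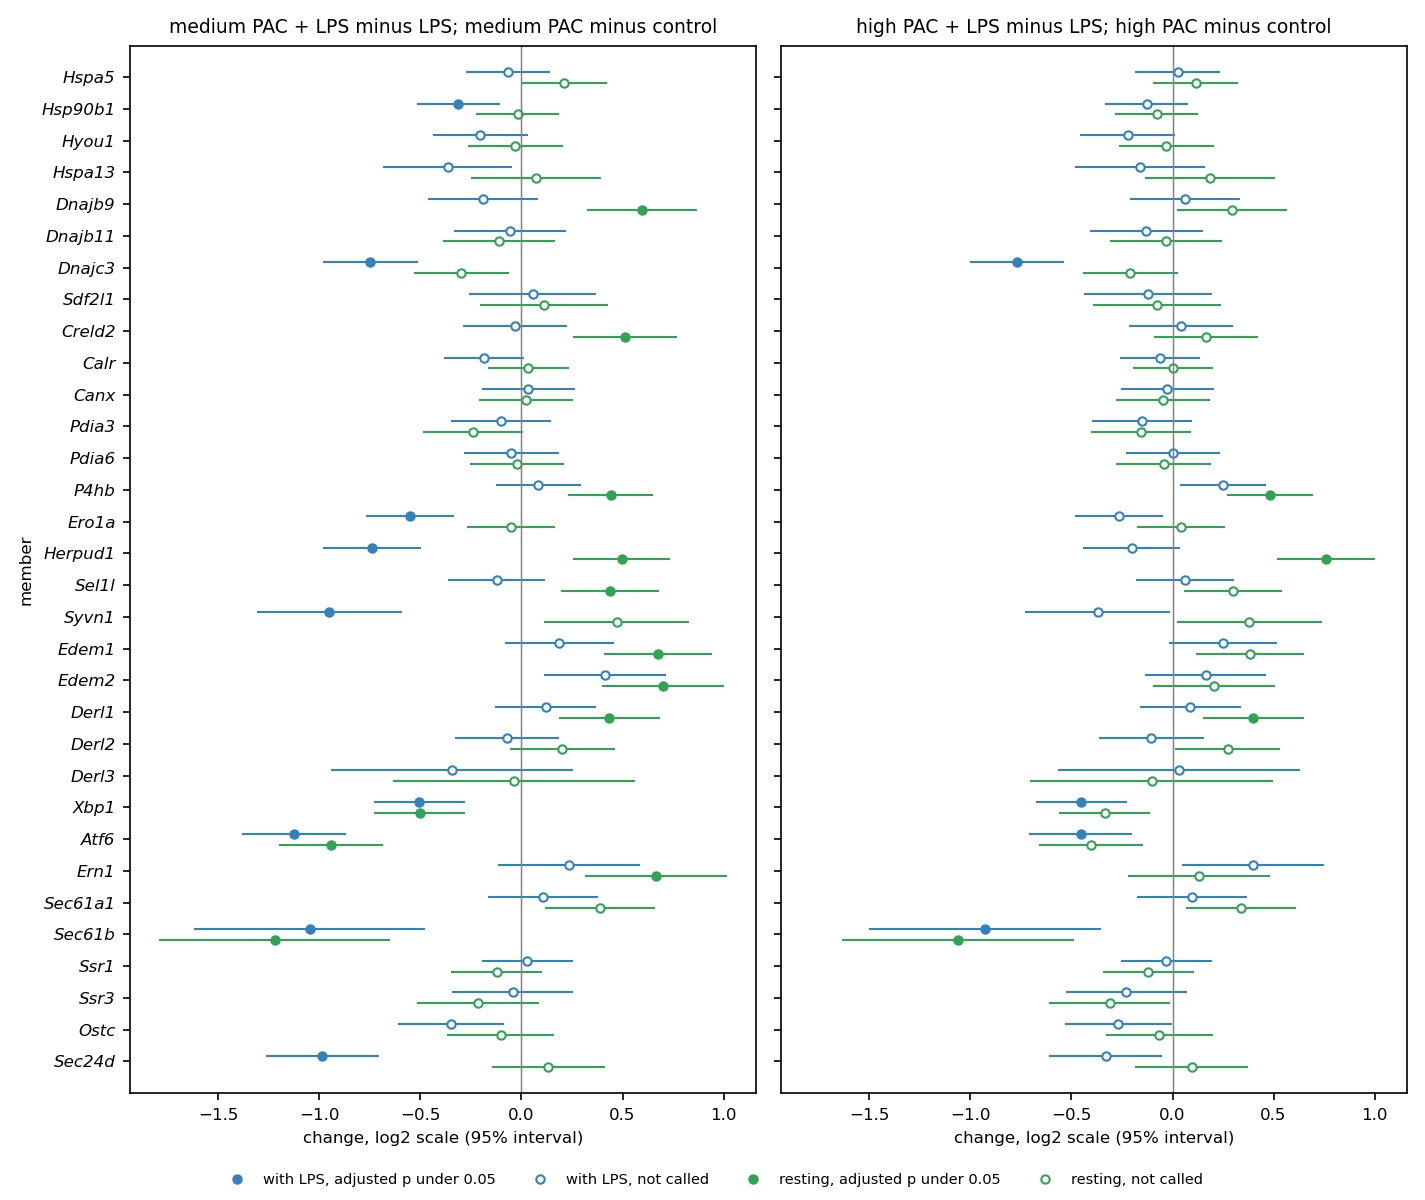
Change of each of the 32 members with medium PAC (left) and high PAC (right), in LPS-activated cells against LPS (blue, upper point) and in resting cells against control (green, lower point), with 95% intervals on the deposited log2 scale and filled points where the adjusted p was under 0.05. For Syvn1, Herpud1 and Dnajb9 with medium PAC the point with LPS lies left of 0 and the resting point right of it, while both points of Atf6, Xbp1 and Sec61b lie left of 0.

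The 3 PAC differ in mean polymerization and were given at 1 mass concentration, so their groups were compared in 6 pairs, 3 in each state. In resting cells medium PAC differed from low PAC in 7 members (background 8.74%, or 19.8% in the fit filtered at the silent level). Dnajb9 was higher by 0.83 (95% interval 0.56 to 1.11, adjusted p = 0.00015), Edem1 by 0.68 (0.41 to 0.95) and Edem2 by 0.62 (0.32 to 0.92). P4hb was higher by 0.53, and Sec61b, Atf6 and Xbp1 were lower, with differences of -1.01, -0.66 and -0.37. Without low PAC replicate 1 or without medium PAC replicate 3, 4 of the 7 calls were left, and that of Xbp1 was lost without any 1 of the 6 arrays. High PAC differed from low PAC in 3 members (background 4.88%, filtered 12.2%). P4hb and Herpud1 were each higher by 0.57 (0.36 to 0.78 and 0.33 to 0.81) and Dnajb9 by 0.53 (0.26 to 0.81). The call of Dnajb9 was lost without low PAC replicate 2 or 3 or high PAC replicate 3, and all 3 were lost without the resting arrays with high Il1b described last. Medium and high PAC differed in Atf6 alone (background 2.27%, filtered 5.97%). Atf6 was lower with medium PAC, at -0.54 (-0.80 to -0.28, adjusted p = 0.019). That call was lost without medium PAC replicate 1 or any 1 of the high PAC arrays.

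In LPS-activated cells medium PAC differed from low PAC in 9 members, all lower with medium PAC (background 12.5%, or 25.7% in the filtered fit). Sec61b (-1.11, 95% interval -1.68 to -0.54), Atf6 (-1.06, -1.32 to -0.80) and Syvn1 (-1.001, -1.36 to -0.64) had the largest differences. Sec24d, Herpud1, Xbp1, Ero1a, Dnajc3 and Hsp90b1 differed by -0.94 to -0.33. The call of Sec61b was lost without low PAC + LPS replicate 1 or medium PAC + LPS replicate 3, and that of Hsp90b1 without any 1 of the 6 arrays except medium PAC + LPS replicate 2. High PAC differed from low PAC in 3 members, all lower (background 6.99%, filtered 16.4%). They were Sec61b at -0.99 (-1.56 to -0.42), Dnajc3 at -0.47 (-0.71 to -0.24) and Xbp1 at -0.47 (-0.69 to -0.24). A single call was left without low PAC + LPS replicate 1 or without high PAC + LPS replicate 3. Medium and high PAC differed in 3 members, all lower with medium PAC (background 5.37%, filtered 12.5%). They were Atf6 at -0.67 (-0.93 to -0.42), Sec24d at -0.66 (-0.94 to -0.38) and Herpud1 at -0.54 (-0.78 to -0.30). Adjustment over the features of all 6 pairs together kept all 26 of these calls, with 2 members in place of 1 for medium against high PAC in resting cells. Hspa5 passed in none of the 6 pairs, and its intervals reached from -0.34 to 0.38.

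Other genes of the pathway were counted in 8 lists that held 136 genes, of which 132 were measured. LPS raised 50 and lowered 29 of them. Of all features 13.5% were higher and 20.3% lower. Above the silent level, where 127 of the 132 genes lie, 20.8% were higher and 34.6% lower. The list of the PERK and ATF4 arm, which holds genes of amino acid supply and feedback on translation, was higher with LPS in all 12 measured genes, with a median change of 3.68. The lists were chosen with earlier results of these data known, so this count describes the list and is not independent evidence about the arm. Atf4 rose by 2.40 (adjusted p = 2.0e-13), Ddit3, the transcription factor CHOP, by 3.10 (adjusted p = 2.1e-12) and Ppp1r15a, which reverses the translation block, by 3.47 (adjusted p = 3.8e-11). The highest were Sesn2 at 6.04 and Chac1 at 5.95. Eif2ak3, which encodes PERK itself and is not in that list, changed by -0.27, which did not pass (adjusted p = 0.28). Medium PAC alone raised 4 and lowered 1 of the 12, with Atf3 at 4.17, Ppp1r15a at 1.55, Ddit3 at 1.19 and Nupr1 at -1.99, while Atf4 changed by -0.05 (adjusted p = 0.86). Medium PAC + LPS raised 2 (Ppp1r15a by 1.75, Atf3 by 1.35) and lowered 4 of the 12 relative to LPS, with Nupr1 at -2.47 and Ddit4 at -2.41. With high PAC alone Atf3 rose by 2.73 and Ppp1r15a by 0.98, with 3 higher and 1 lower. With high PAC + LPS Atf3 rose by 1.32 and Ppp1r15a by 1.22, with 2 higher and 3 lower.

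The remaining lists were more mixed, and their counts with LPS stand against the background just given. LPS raised 9 and lowered 1 of 19 other genes of ER-associated degradation, among them Trim13 (4.31) and Rnf185 (1.89), both ubiquitin ligases. It raised 9 and lowered 3 of 21 genes of the translocon, signal peptidase and signal recognition particle, among them Sec61g (1.26). The protein disulfide isomerase and redox list was higher in 4 and lower in 8 of 18, with Qsox1 at 2.21, Erp29 at -2.79 and Tmx2 at -1.97. The oligosaccharyltransferase and glucosidase list was higher in 2 and lower in 7 of 15, with Stt3b at -1.14. Of 18 other chaperones, cyclophilins and FKBPs it raised 5 and lowered 6. It raised 6 and lowered 2 of 21 genes of the COPII coat and its receptors, and raised 3 and lowered 2 of 8 on the sensor and processing list. Over all 132 genes medium PAC alone raised 13 and lowered 10 (background 5.03% and 6.28%, or 8.36% and 10.8% above the silent level). High PAC alone raised 4 and lowered 9 (3.21% and 3.64%, or 5.32% and 6.26%). Medium PAC + LPS raised 7 and lowered 22 (7.17% and 7.47%, or 11.9% and 12.5%). High PAC + LPS raised 7 and lowered 19 (4.34% and 5.74%, or 6.53% and 9.73%). With low PAC only Atf3 passed (0.99, higher), and with low PAC + LPS none passed (4 at an unadjusted p under 0.05). Among the falls with medium PAC + LPS were Qsox1 (-1.40), Creb3l2 (-1.49), a transcription factor of the ATF6 kind, Sec24b (-1.25), Sec61g (-0.97) and Sec62 (-0.85).

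Array quality was similar, with correlations between replicates of 0.989 to 0.994, and the number of arrays limits the precision. Small shifts went with LPS. Gene medians were 4.86 to 4.98 in resting arrays and 4.95 to 5.06 in arrays with LPS. The median of positive control features less that of negative ones was 6.36 to 6.65 and 6.11 to 6.44. Macrophage markers were above the silent level in 12 of 13 measured genes in every group, with Mertk below it. Against the backgrounds given with the members, LPS raised 7 and lowered 3 of these 13 genes (median change 0.27). Medium PAC + LPS raised 1 and lowered 5 (-0.18), high PAC + LPS raised 1 and lowered 2 (-0.24), medium PAC raised 1 and lowered 6 (-0.35) and high PAC raised 1 and lowered 2 (-0.24). The summed level of the list was 19.58 to 19.70 with medium PAC + LPS, 19.72 to 19.77 with LPS, 19.76 to 19.84 with medium PAC and 20.00 to 20.05 in control. Markers of B lymphocytes and plasma cells, which are rich in ER, had 1 of 7 measured genes above the silent level in every group, namely Sdc1, which averaged 13.58 in LPS arrays and 10.75 in control arrays. The other measured genes of that list, Jchain, Mzb1 and Cd79a among them, stayed below the silent level. Its summed level was 14.17 to 14.26 with medium PAC + LPS, 14.17 to 14.37 with high PAC + LPS, 13.53 to 13.62 with LPS, 12.48 to 12.75 with medium PAC, 12.09 to 12.24 with high PAC and 10.72 to 10.81 in control. The neutrophil list moved with LPS through S100a8 alone of 7 genes, at 7.25 with medium PAC + LPS, 10.90 with high PAC + LPS, 12.94 with LPS and 4.55 in control arrays, while Elane and Mpo stayed below the silent level. The part of the macrophage markers, Sdc1 and S100a8 in the changes of the members was not tested. Il1b, an inflammatory cytokine gene, was high in 3 resting arrays, at 9.39 in medium PAC replicate 3 and at 11.92 and 9.62 in high PAC replicates 2 and 3, against 4.86 to 6.40 in the other resting arrays. Over the members these 3 arrays deviated from their group means by medians of -0.02, -0.03 and 0.01, within the range of the other arrays (-0.09 to 0.06). The model was refitted without them, an alternative added after seeing the data, in which the 1 high PAC array left was taken to vary as the remaining groups do. There 7 members were higher and 3 lower with medium PAC, Ern1 and Derl1 no longer passing at 0.62 and 0.45 (adjusted p = 0.061 and 0.059). With high PAC only Herpud1 passed, at 0.74 (adjusted p = 0.026). P4hb, Derl1 and Sec61b then had changes of 0.50, 0.36 and -0.64 (adjusted p = 0.095, 0.41 and 0.32).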

How the data were processed

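RNA of 24 samples was hybridised to Clariom S mouse arrays, and the authors deposited 1 log2 value per feature and array, made with the Transcriptome Analysis Console according to the study's methods. For the summarisation and scaling, no method was given in the sources at hand. These values run from 0.95 to 19.26, which a 16-bit scan does not give directly, so the scale may be stretched. Control features were left out, and symbols came from the platform annotation (19572 of 22206 gene features have one). Groups were those of the labels. A limma model (limma 3.58.1, R 4.3.3) with 1 mean per group over 24 arrays gave 16 comparisons: 7 against control or LPS, 6 between PAC and 3 interactions. P-values were adjusted by Benjamini-Hochberg over the 22206 features within each comparison, with calls at 0.05, and intervals are 95%. The procedure was tested on simulated data.

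The members and the other gene lists were chosen with earlier results of these data known. All 34 members were accounted for. Array values were given for Hspa5, Xbp1, Atf6 and Ern1 in every group and for the called members of largest change (up to 6 a direction with LPS, 4 a PAC comparison, 3 an interaction or pair). Of the other lists, Atf4, Ddit3, Ppp1r15a, Eif2ak3 and up to 2 called genes a list and comparison were named. A symbol with several features was taken at its highest mean. Promoters were RefSeq windows of GRCm38.p6, counted from 1 at the start base with -1 before it. Alternatives were quantile normalization, a filter at the silent level, trended and robust eBayes, array weights, fits of the compared groups only, a replicate block, adjustment over the 6 pairs together and leaving out each array.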

Additional observations from a re-analysis of the deposited data

Results flagged for a closer look

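For 7 pairs of member and PAC the change with LPS differed from the change in resting cells by a test of the difference itself (limma interaction, adjusted over all features). With medium PAC the differences were -1.42 for Syvn1 (adjusted p = 0.000613), -1.24 for Herpud1 (3.78e-05), -1.12 for Sec24d (0.000578), -0.79 for Dnajb9 (0.0106), -0.56 for Sel1l (0.0452) and -0.50 for Ero1a (0.0489). Syvn1, Herpud1, Dnajb9 and Sel1l had changes of -0.95, -0.74, -0.19 and -0.12 with LPS and of 0.47, 0.49, 0.60 and 0.44 in resting cells. Of these 4, Herpud1 passed in both states, Syvn1 only with LPS, and Dnajb9 and Sel1l only in resting cells. Sec24d and Ero1a had changes of -0.99 and -0.55 with LPS and of 0.13 and -0.05 in resting cells. With high PAC the difference was -0.96 for Herpud1 (adjusted p = 0.00209), from changes of -0.20 with LPS and 0.76 in resting cells. The calls of Sel1l and Ero1a with medium PAC were the weakest, and that of Sel1l was lost without any 1 of the 12 arrays involved. No test for a stray array was run, since groups held 3 arrays.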

How the results depend on the processing

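Of 223 counts of called members recomputed under an alternative, 176 stayed within 1.5 times the value reported and 47 did not, and none of the 79 called changes of single members turned its direction in the alternatives run. Changes that did not pass and genes of other lists were not recomputed. Of the 79 calls, 37 were kept in fits of the compared groups only, 75 with quantile normalization, 77 with array weights and 79 with the filter and with trended and robust eBayes. Leaving out 1 array kept 422 of 516, and leaving out the arrays with high Il1b kept 19 of 34. Fits of the compared groups only gave 3 members for medium PAC against control (12 reported), 1 for high PAC against control (4), 2 for high PAC + LPS against LPS (4), 3 for medium against low PAC (7), 5 for medium against low PAC with LPS (9), 3 for the medium PAC interaction (6), and 0 for high against low PAC (3), medium against high PAC (1), high against low PAC with LPS (3), medium against high PAC with LPS (3) and the high PAC interaction (1). These fits have fewer arrays to estimate the spread. Trended and robust eBayes gave 8 for high PAC against control, 11 for medium against low PAC, 5 for high against low PAC, 2 for medium against high PAC, 7 and 5 for high against low and medium against high PAC with LPS, and 13 and 3 for the medium and high PAC interactions. The filter at the silent level gave 7 for high PAC against control, 5 for high against low PAC, 2 for medium against high PAC, 5 for both high against low and medium against high PAC with LPS, and 2 for the high PAC interaction. Adjustment over the 6 pairs gave 2 for medium against high PAC. Without the 3 resting arrays with high Il1b, chosen after seeing the data, the counts were 1 for high PAC against control, 4 for medium against low PAC, and 0 for high against low PAC, medium against high PAC and the high PAC interaction. Leaving out 1 array at a time gave 16 to 17 members with LPS, 10 to 12 with medium PAC, 2 to 3 with high PAC, 7 to 9 with medium PAC + LPS, 1 to 4 with high PAC + LPS (1 without LPS replicate 1), 4 to 7 for medium against low PAC, 2 to 3 for high against low PAC, 0 to 1 for medium against high PAC, 7 to 9, 1 to 3 and 3 to 4 for the corresponding pairs with LPS, 4 to 5 for the medium PAC interaction and 1 for the high PAC interaction. Replicate numbers did not pair the samples (correlations of same-numbered deviations -0.0744 to 0.130, own number best in 12 of 39 cases). With the replicate block the counts were 17 with LPS, 12 with medium PAC, 3 with high PAC, 8 with medium PAC + LPS, 4 with high PAC + LPS, 4 for the medium PAC interaction and 1 for the high PAC interaction, and 74 of 79 single calls were kept. Another feature per symbol was not run, since each measured member has 1 feature. Signal above 16 in log2 units may compress the changes of Hspa5, Calr, Hsp90b1, Xbp1 and Herpud1, which was not tested.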
